A study of Mus musculus with 3 samples.

Results

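The colony-stimulating factors and their receptors were followed in RAW264.7 cells, a mouse macrophage line grown from a tumour induced by Abelson leukaemia virus, after the Toll-like receptor 4 agonist lipopolysaccharide (LPS). Members were taken by gene symbol from the array annotation, 3 ligands (Csf1, Csf2 and Csf3) and 5 receptor genes (Csf1r, Csf2ra, Csf2rb, Csf2rb2 and Csf3r), 8 of the 36864 gene names on the array. They were chosen by their differences between these arrays and their deposited ratios to unchallenged cells, so every level and difference below is a description. One-colour expression arrays were available for 3 groups with 1 array each, namely macrophages given LPS for 3 h, macrophages given Lactiplantibacillus plantarum LOC1 for 12 h and then LPS for 3 h, and macrophages given L. plantarum LOC3 for 12 h and then LPS for 3 h. Both bacterial strains came from fresh tea leaves, and all 3 groups had received LPS. Unchallenged macrophages served as the reference of a deposited ratio table, and their own array was not analysed here. The study's methods section and the sample notes give different times for the bacterial stimulation, and the time in the notes is the one given above. With 1 array a group there is no spread between replicates, no test between groups was possible, and the culture behind each array cannot be told apart from the treatment.

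Colony-stimulating factors are secreted proteins that keep myeloid cells alive, make them divide and direct their maturation. Csf1 (M-CSF) acts through the receptor tyrosine kinase Csf1r and is the main survival factor of macrophages. Csf2 (GM-CSF) acts through a specific alpha chain, Csf2ra, and the common beta chain, Csf2rb, which the receptors for interleukin 3 and interleukin 5 also use, and in the mouse a close copy of that chain, Csf2rb2, serves interleukin 3 alone. Csf3 (G-CSF) acts through Csf3r and is best known as the growth factor of neutrophils. Macrophages are themselves a source of all these ligands once Toll-like receptors are engaged.

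On the array the 8 genes had 15 probes of 60 bases, of which 14 were well above background on all 3 arrays, and each gene is given below by its brightest probe unless another is named. Coordinates of probes are those of the array annotation on the mm9 build. The opening bases of 4 ligand probes are printed first because the higher values of the report were read from them, and because 2 of them are annotated to different Csf1 transcripts and moved apart. They read 5′ to 3′ as in the scanner files.
Csf2: tctgaaaacgctgactcagcttggacagcg
Csf3: gggggacaagacatccctgtttaatattta
Csf1 probe 1: tgtggggcttacttagccttctggttacag
Csf1 probe 2: cagctgcatcatatattgtcatatgttgag

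The beta chain genes are close copies, so the most alike stretch of their brightest probes is shown, with the bases that differ in capitals. Over these 30 bases the probes shared 27, and counted from 1 at the first base printed the differences from the Csf2rb to the Csf2rb2 probe were A11G, C15T and C25A.
Csf2rb: ggcagatcaaAtgtCccttggtctCtgttc
Csf2rb2: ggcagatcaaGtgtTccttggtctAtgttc

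A further Csf2rb probe, probe 3, is annotated at chr15:78176856-78177118 on the plus strand, a span of 263 bases for a probe of 60, as a probe across a splice junction would have. Its placement was not checked against a genome, and annotated spans can be incomplete, since that of the Csf2 probe covers 28 of its 60 bases. It is printed whole because its annotated place is away from the other Csf2rb probes.
Csf2rb probe 3: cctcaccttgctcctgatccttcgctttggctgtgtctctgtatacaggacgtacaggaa

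The only Csf3r probe, annotated at chr4:125721478-125721537, carried a run that other probes also held. Bases 31 to 60 of it are printed in capitals, which mark the 30 bases shared letter for letter, and on the same strand, with a probe for the transcript cluster TC1653005.
Csf3r: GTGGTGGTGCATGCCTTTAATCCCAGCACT

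All values below are Cy3 intensities processed by the scanner software, and differences are on the log2 scale after the 75th percentile of each array (intensity 367 for LPS, 332 for LOC1 and 334 for LOC3) was set equal. A probe of a gene could be judged only against how well repeated spots of a probe agreed within an array, which gave a technical SD of the log2 difference of 0.0373 for bright probes and 0.262 for dim ones. This SD holds spot error only, and leaves out cultures, RNA extraction and labelling. Between 47.8% and 51.9% of the 56597 probes were well above background on an array, no spot was saturated, and 17405 genes were well above background on all 3. All 7 macrophage markers were detected on every array and none differed by 2-fold from LPS with either strain (median log2 differences 0.08 and 0.08), with Cd68 at intensities of 47720, 54425 and 53426. Of the markers of other cell types, Ly6g and S100a9 of granulocytes, Cd8a of T cells, Cd79a of B cells, Pdgfrb of fibroblasts and Krt8 of epithelium were not well above background on any array. On the LPS array 3 of 6 granulocyte, 4 of 5 T cell, 2 of 4 B cell, 4 of 5 fibroblast and 1 of 5 epithelial markers passed that limit, and the summed intensities of the lists on the 3 arrays ran from 612 to 667, 4447 to 6152, 61.8 to 105, 129 to 211 and 20.4 to 36.1. The sums of the granulocyte, fibroblast and epithelial lists were highest with LPS alone, and those of the T cell and B cell lists with LOC1. Of these markers Ms4a1 of B cells was 2.13-fold higher and Dcn of fibroblasts 2.09-fold lower than LPS with LOC1. None reached 2-fold with LOC3 by its brightest probe. Lck, a kinase of the T cell list, held most of its sum, with intensities of 3086, 4935 and 4812. Its detected probes ran up to a log2 difference of 1.04 with LOC3, past 2-fold. The part of these genes in the results below was not tested.

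**Figure D1:**
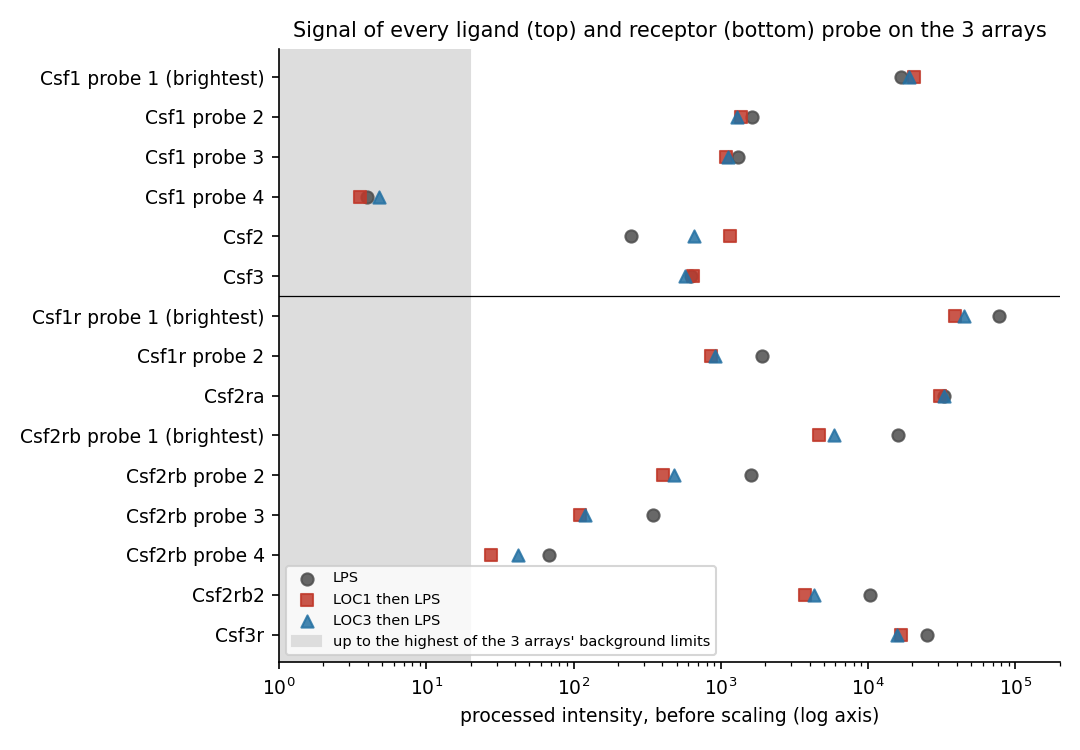
Processed intensity (log axis, before scaling) of each of the 15 probes on the LPS, LOC1 and LOC3 arrays, with ligand probes above the line and receptor probes under it. The grey band ends at the highest of the 3 arrays' background limits, 19.8, and only Csf1 probe 4 lies inside it. Csf2 and Csf1 probe 1 are lowest with LPS alone. Both Csf1r probes, all 4 Csf2rb probes, Csf2rb2 and Csf3r are highest with LPS alone, and so are Csf2ra and Csf1 probes 2 and 3. The LPS array also had the highest 75th percentile before scaling.

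Csf2 was the ligand that differed most. On the LPS array its intensity was 245, against 1161 after LOC1 and 653 after LOC3. After scaling, the level was 5.24-fold higher with LOC1 (log2 difference 2.39) and 2.94-fold higher with LOC3 (1.55) than with LPS alone. Between the strains the level was 1.79-fold higher with LOC1 (0.84), which is under the 2-fold limit used for calls. The probe is annotated at chr11:54060772-54060799 on the minus strand, and no other probe on the array shared 20 bases with it. From the arrays the study also reported higher Csf2 with both strains. By quantitative PCR, however, it reported lower Csf2 and higher Csf3 with LOC1 before LPS than with LPS alone. The cause of this difference between the methods was not tested.

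Csf1 gave different values with probes annotated to different transcripts, an annotation that could not be checked here against transcript sequences. Probe 1, at chr3:107544333-107544392 and annotated to 2 RefSeq transcripts, had intensities of 16790, 20469 and 18975 on the LPS, LOC1 and LOC3 arrays. Its log2 difference from LPS alone was 0.43 after LOC1 and 0.31 after LOC3. Probes 2 and 3, annotated to 1 other RefSeq transcript, overlap by 31 bases at chr3:107548521-107548580 and chr3:107548550-107548609 and so are not independent readings. Probe 2 had intensities of 1620, 1359 and 1288 on the LPS, LOC1 and LOC3 arrays, with log2 differences of -0.11 and -0.19, and probe 3 had intensities of 1317, 1076 and 1124, with -0.15 and -0.09. The difference from LPS was therefore greater for probe 1 than for probe 2 by 0.54 with LOC1 and 0.51 with LOC3, and greater than for probe 3 by 0.58 and 0.40. A single factor per array leaves this gap as it is, and with quantile normalization it was 0.52 and 0.46 against probe 2 and 0.55 and 0.35 against probe 3. The signs of the small values did depend on the scaling. With arrays set equal at their median, probe 2 stood at 0.08 and -0.03 and probe 3 at 0.04 and 0.07. Probe 4 did not pass the background limit on any of the arrays.

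Csf3 was nearly level across the arrays. Its intensity was 627 on the LPS array, 644 after LOC1 and 566 after LOC3, and the log2 differences from LPS were 0.18 and -0.01. The value with LOC3 was within the technical SD and turned to 0.15 with median scaling. None of the 3 ligands reached 2-fold between the strains, with log2 differences from LOC3 to LOC1 of 0.84 for Csf2, 0.19 for Csf3 and 0.12 for Csf1.

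Among the receptors, both beta chains were at least 2-fold lower after either strain. Csf2rb read 15928 on the LPS array, 4636 after LOC1 and 5905 after LOC3, which was 3.11-fold lower with LOC1 (log2 difference -1.64) and 2.45-fold lower with LOC3 (-1.29). Its other probes, which have positions of their own along the gene, were lower as well. Probe 2 went from 1596 with LPS to 406 and 482 (-1.83 and -1.59), although its annotation names transcripts of both Csf2rb and Csf2rb2, so it may read either copy. Probe 3, the one annotated over 263 bases, went from 348 to 111 and 119 (-1.50 and -1.40). Probe 4, which is annotated to a single full-length cDNA and was dim, went from 68.5 to 27.5 and 41.6 (-1.17 and -0.58), the value with LOC3 being the only one of the 8 on the 4 probes short of 2-fold. With median scaling the value of probe 4 with LOC1 was -0.99 and also fell short.

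Csf2rb2, the copy that serves interleukin 3, had intensities of 10368, 3735 and 4272 on the LPS, LOC1 and LOC3 arrays. It was 2.51-fold lower with LOC1 (-1.33) and 2.21-fold lower with LOC3 (-1.14). The second value was -0.98 with median scaling and then missed 2-fold. The log2 difference of Csf2rb was the lower of the pair, by -0.31 after LOC1 and -0.15 after LOC3. The 3 base differences in the stretch printed above are the closest approach of these probes, and how far each also binds the other transcript was not tested.

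Csf1r, the receptor by which macrophages sense Csf1, was lower with both strains but short of 2-fold. The brightest probe read 77805 on the LPS array, 38943 after LOC1 and 44637 after LOC3, with log2 differences of -0.85 and -0.66. The other probe, at a separate place in the gene, had intensities of 1893, 858 and 917, with -0.997 and -0.91. That first value amounts to 1.996-fold and lies just outside the 2-fold limit.

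Csf2ra, the chain that gives the Csf2 receptor its specificity, was nearly level, unlike Csf2rb, the beta chain with which it pairs. Its intensity was 32851 on the LPS array, 30536 after LOC1 and 32802 after LOC3, and the log2 differences were 0.04 and 0.14. The sign turned under other scalings, since with quantile normalization or a percentile over detected probes the value with LOC1 ran down to -0.06. Of the beta chain's other partners, Il3ra, the alpha chain for interleukin 3, was also nearly level at intensities of 3047, 2739 and 2976 (-0.01 and 0.10). Il5ra was not rated well above background on any array.

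Csf3r, the receptor for Csf3, read 25192 on the LPS array, 16812 after LOC1 and 15718 after LOC3, with log2 differences of -0.44 and -0.54. This value carries a limit of its own, because its probe shared at least 20 bases with probes of 4 other genes, and no other member probe shared so long a run with another gene. On the same strand it shared 30 bases with the TC1653005 probe, which had intensities of 38198, 27508 and 25002 and differed by -0.33 and -0.47, and 20 bases with the Kif28 probe (-0.51 and -0.58). On the opposite strand it shared 24 bases with the Nxnl1 probe (0.14 and 0.29) and 24 with the Il2rg probe (0.60 and 0.64). The search covered probes of the array and promoter windows only, so other transcripts that hold the run were not counted. The part of transcripts other than Csf3r in this signal was not tested.

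**Figure D2:**
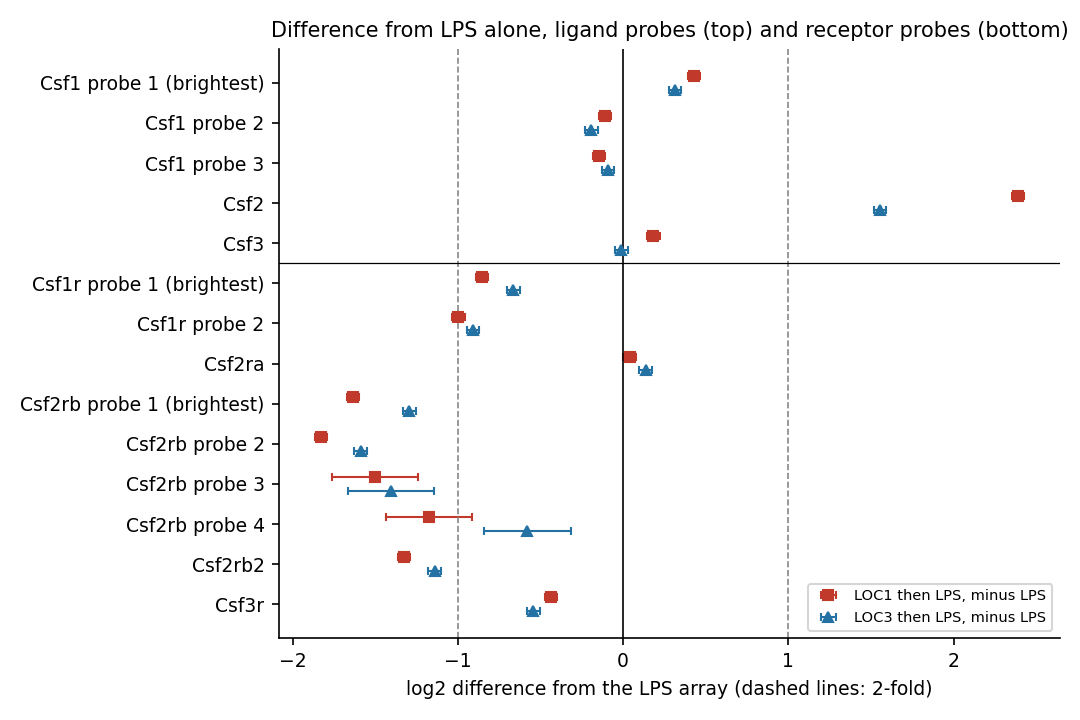
Log2 difference from the LPS array of the 14 probes well above background on all 3 arrays, for LOC1 and LOC3, with error bars of 1 technical SD of repeated spots (0.0373 for bright and 0.262 for dim probes). Dashed lines mark 2-fold. Csf2 lies beyond the upper line with both strains, the first 3 Csf2rb probes and Csf2rb2 lie beyond the lower line with both, and Csf3, Csf2ra and Csf1 probes 2 and 3 lie near 0.

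The log2 difference from LPS was above 0 for 3 of 3 ligands with LOC1 and 2 of 3 with LOC3, Csf3 being the exception. It was below 0 for 4 of 5 receptor genes with either strain, Csf2ra being the exception. Csf1 counts here by probe 1, while its probes 2 and 3 were below 0 with both strains. Csf3r counts by the probe that shares a run with probes of other genes. With LOC1, 1 of 3 ligands was at least 2-fold higher and none lower, and 2 of 5 receptor genes were at least 2-fold lower and none higher. Among all 20018 genes compared, 541 (2.7%) were at least 2-fold higher and 702 (3.51%) lower. With LOC3 the counts among members were the same, 1 of 3 ligands higher and 2 of 5 receptor genes lower, beside 632 (3.19%) higher and 577 (2.92%) lower of 19789 genes. The median log2 difference of the ligands was 0.43 with LOC1 and 0.31 with LOC3, which are the values of Csf1 probe 1. With the mean of a gene's detected probes the ligand medians were 0.18 and 0.0108. The median of the receptors was -0.85 and -0.66, while that of all genes compared was 0.03 and 0.07. Because the members were picked with these contrasts in view, nothing is read from their counts against the shares of all genes. Setting the arrays equal at their median raised the median of all genes by 0.19 with LOC1 and by 0.16 with LOC3, and changed the calls over all genes to 890 higher and 465 lower with LOC1 and 888 and 376 with LOC3. Csf2 and Csf1 stayed above 0, and Csf1r, Csf2rb, Csf2rb2 and Csf3r below it, under every scaling tried. Between the strains no member reached 2-fold in either direction, beside 155 (0.8%) of 19381 genes higher and 355 (1.83%) lower with LOC1. In that contrast all 3 ligands were above 0 and 4 of 5 receptors below it, Csf3r being the exception at 0.10. Both contrasts with LPS use the same LPS array, so they are not independent of each other.

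**Figure D3:**
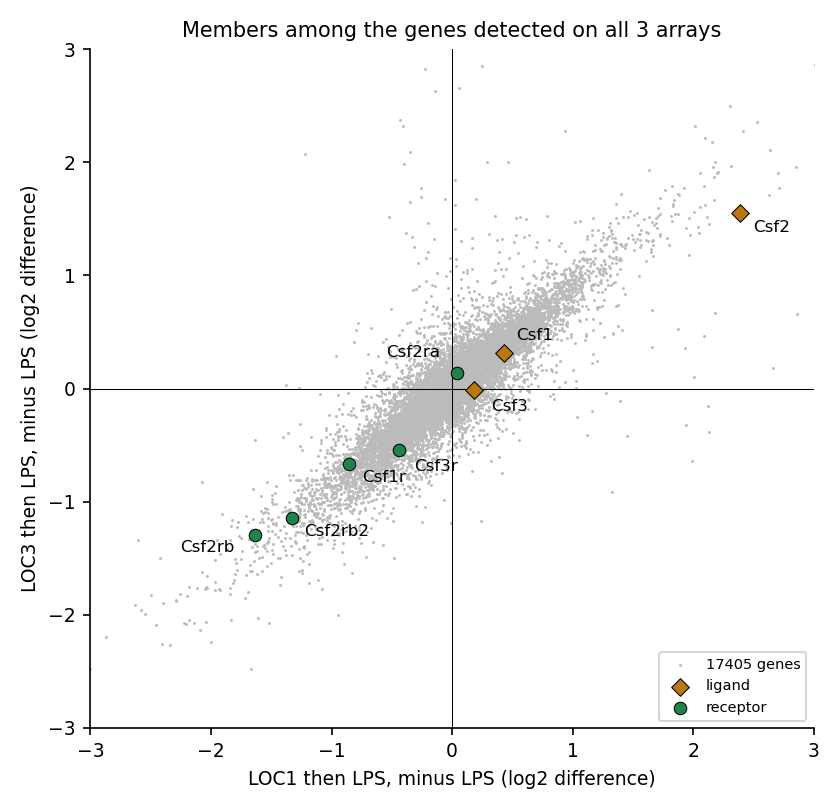
Log2 difference from LPS with LOC1 (x axis) and with LOC3 (y axis) for 17405 genes that passed the background limit throughout (grey), with the 8 members marked by role. Csf2 sits at 2.39 and 1.55, Csf2rb at -1.64 and -1.29, and Csf2ra and Csf3 near the origin. Both axes share the LPS array and 20 genes lie outside the axes, which end at 3.

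Over the 2 differences from LPS, the genes whose pair of values lay nearest to that of Csf2 were Fabp4, a fatty acid carrier (2.36 and 1.57), Ly6a, a surface protein of stem and activated cells (2.18 and 1.67), and 9030619P08Rik (2.13 and 1.46), at distances of 0.037, 0.24 and 0.28. Only 1 gene of 17397 lay within 0.1 of it. For Csf1r the nearest were LF201707, Trem1, an activating receptor of myeloid cells, and Sqle, an enzyme of sterol synthesis, at distances of 0.0023 to 0.0152, and 99 genes lay within 0.1. These rankings rest on 3 arrays.

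The deposited table gives each array as a log2 ratio to the unchallenged macrophages, for probes past 2-fold. All 3 ligands were listed as higher with LPS alone, 2 of 5 receptor genes were listed as higher, and no member was listed as lower. Over the array 3575 gene names (9.7%) had a probe listed as higher with LPS and 3192 (8.66%) one listed as lower. Where a probe was listed for another group, its ratio could be rebuilt for a blank column from the scanner signal, and none of the 12929 blank entries rebuilt in this way reached 2-fold.

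Csf1 probe 1 had deposited log2 ratios of 8.35 on the LPS array, 8.78 after LOC1 and 8.67 after LOC3, and the LPS value amounts to 327-fold. The unchallenged signal it implies, 51.3, is above the background limit of the LPS array (16.3). Probe 2, annotated to the other Csf1 transcript, had 5.66, 5.56 and 5.47, which is 50.7-fold with LPS. Csf2 had 6.33, 8.73 and 7.89, but the unchallenged signal these imply, 3.03, is below the limit, so only a bound of at least 15.0-fold higher with LPS can be given. Csf3 had 7.70, 7.89 and 7.70, with an implied unchallenged signal of 3.01 and a bound of at least 38.5-fold higher. Each ligand was thus far above unchallenged macrophages on every array, and Csf2 alone moved by more than 1 log2 unit between them.

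The receptors were listed with smaller ratios. Csf2rb2 was listed at 1.12 with LPS alone, and its rebuilt ratios were -0.21 with LOC1 and -0.02 with LOC3. Csf2rb probe 2 was listed at 1.51 with LPS alone, against rebuilt ratios of -0.32 and -0.07, and the dim probe 4 at 1.34, against 0.16 and 0.76. After either strain these 3 probes thus lay within 2-fold of unchallenged macrophages, whereas they were over 2-fold above them with LPS alone. Csf1r, which was likewise lower with the strains than with LPS alone, fell below unchallenged macrophages instead. Its second probe was blank with LPS (rebuilt -0.13) and listed at -1.12 with LOC1 and -1.03 with LOC3. The brightest probes of Csf2rb and Csf1r, and those of Csf2ra and Csf3r, were listed for no array.

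**Figure D4:**
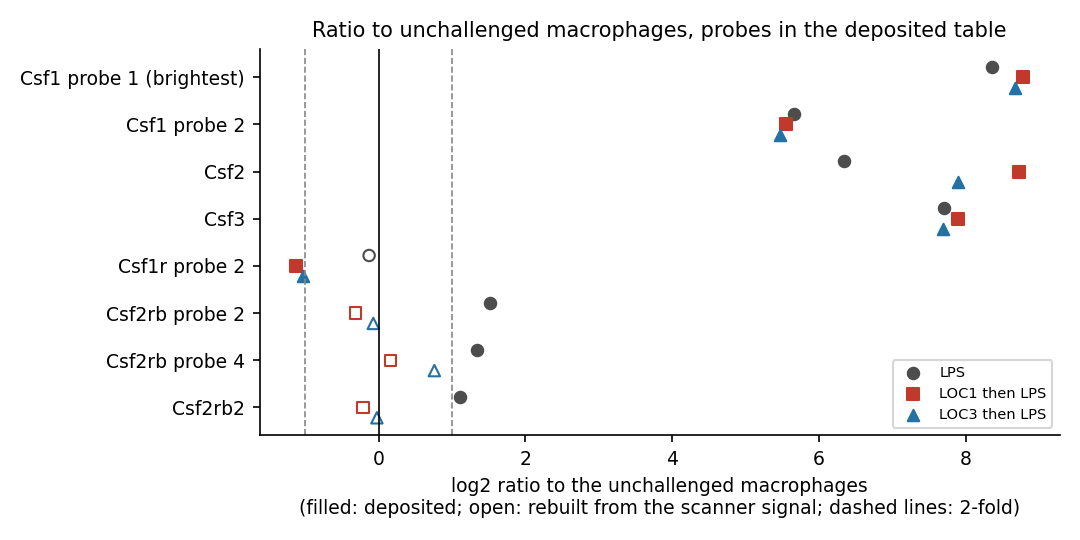
Log2 ratio to unchallenged macrophages of the 8 member probes in the deposited table, on the LPS, LOC1 and LOC3 arrays. Filled symbols are deposited values and open symbols were rebuilt from the scanner signals, and dashed lines mark 2-fold. Ligand probes lie between 5.47 and 8.78 on all 3 arrays, the Csf2rb and Csf2rb2 probes pass the upper line with LPS alone, and the Csf1r probe passes the lower line with LOC1 and with LOC3.

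Promoter sequences from RefSeq (GRCm38.p6) were at hand for 5 members, Csf1, Csf2, Csf2ra, Csf2rb2 and Csf3r, as 250 bases before to 50 after the start. The letters GGGA, any 4 bases, then CC, a form bound by NF-kB, the main transcription factor downstream of Toll-like receptors, were found on either strand in the windows of Csf1, Csf2 and Csf3r, and in 20.7% of 32851 promoters. In the 250 bases before the start they were found for Csf1 and Csf3r, and in 17.6% of promoters. GAGGAA, a form bound by PU.1, the factor that governs myeloid receptor genes, was in the windows of Csf2ra, Csf2rb2 and Csf3r and in 28.3% of promoters. TGANTCA, bound by AP-1, and GAAA, any 2 bases, then GAAA, bound by interferon regulatory factors, were in none of the 5, and in 7.81% and 3.44% of all. The 250 bases before the Csf1 start are printed, since Csf1 was the ligand whose ratio to unchallenged macrophages was measured on both sides. They lie at chr3:107760470-107760719 on the minus strand of GRCm38.p6, and capitals mark the matches to the NF-kB form on either strand, of which the matches in the later run overlap each other.
Csf1 upstream: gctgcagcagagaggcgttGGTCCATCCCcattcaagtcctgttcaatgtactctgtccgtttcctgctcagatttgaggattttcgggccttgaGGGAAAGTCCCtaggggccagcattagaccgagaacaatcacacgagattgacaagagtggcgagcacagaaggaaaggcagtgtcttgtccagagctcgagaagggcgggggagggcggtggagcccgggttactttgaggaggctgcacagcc

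The genes through which these receptors signal were read next. The 23 genes reported here from the signalling list were all detected, and none of these reached 2-fold with either strain by its brightest probe. Their medians were 0.01 and 0.06. Other detected probes ran down to -1.68 and -1.23 for Dok2 and to -1.26 and -1.17 for Lyn, past 2-fold with both strains. By its brightest probe Dok2, an adaptor that restrains cytokine receptor signalling, stood at -0.95 and -0.71. Pik3cd, the leukocyte PI3-kinase catalytic subunit, stood at -0.83 and -0.54, and Gab2, a docking adaptor of Csf2 and Csf1 receptors, at 0.62 and 0.61. Jak2, the kinase bound to the beta chain, stood at 0.36 and 0.34, and Stat5a, the factor it activates, at 0.06 and 0.08. Detected Stat5a probes other than the brightest ran down to -0.85 and -0.75.

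Of 15 genes that respond to these receptors, 3 were at least 2-fold lower than with LPS alone with both strains and none was higher. The list medians were -0.13 and -0.17. Over all genes compared, 3.51% were lower and 2.7% higher with LOC1, and 2.92% lower and 3.19% higher with LOC3. The share lower with both strains at once was not counted. As the list was chosen with earlier results known, nothing is read from its count. Cish, a feedback inhibitor induced by Stat5, had intensities of 2234, 821 and 826 (-1.30 and -1.30). Ccl17, a chemokine that Csf2 induces in macrophages, had intensities of 1297, 53.7 and 51.2 (-4.45 and -4.53). Irf4, a transcription factor that Csf2 induces, had intensities of 113 and 51.1 with LPS and LOC1 (-1.001) and was not well above background with LOC3, which makes it at least 5.18-fold lower there. With median scaling Irf4 stood at -0.81 with LOC1 and missed 2-fold. Ccnd1, a cyclin of the G1 phase, stood at 0.96 and 0.82, and at 1.15 and 0.98 with median scaling, where it passed 2-fold with LOC1. Ccl17, Cish and Irf4 were thus lower on the arrays where Csf2 itself was higher and Csf2rb lower. Ccnd1 and other genes of the list, however, lay above 0 with both strains. Genes of this list also answer to other signals, and which signal set their levels was not tested.

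Among 12 transcription factors that act on the receptor genes, none reached 2-fold with either strain by its brightest probe. The medians were -0.31 and -0.23. Other detected probes ran down to -1.79 and -1.54 for Irf8 and to -1.43 and -1.67 for Mitf, past 2-fold with both strains. By its brightest probe Irf8 stood at -0.65 and -0.35. Spi1, which encodes PU.1, stood at -0.49 and -0.43, and Cebpe at 0.42 and 0.45. Among 11 genes for the decay of cytokine messengers and the shedding of receptors, none reached 2-fold either, and the medians were -0.15 and -0.02. Zfp36l1, a protein that destabilises AU-rich messengers, stood at -0.79 and -0.48, Zfp36l2, its relative, at 0.43 and 0.33, and Adam17, the protease that sheds Csf1r, at -0.50 and -0.44. The ligands that share these receptors were largely undetected. Il34, the second ligand of Csf1r, and Il5 were not well above background on any array. Il3 was well above background with LOC3 alone, at an intensity of 138, at least 9.33-fold above LPS. That value rests on the LOC3 reading alone, as Il3 intensities were 3.35 with LPS and 2.99 with LOC1.

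**Figure D5:**
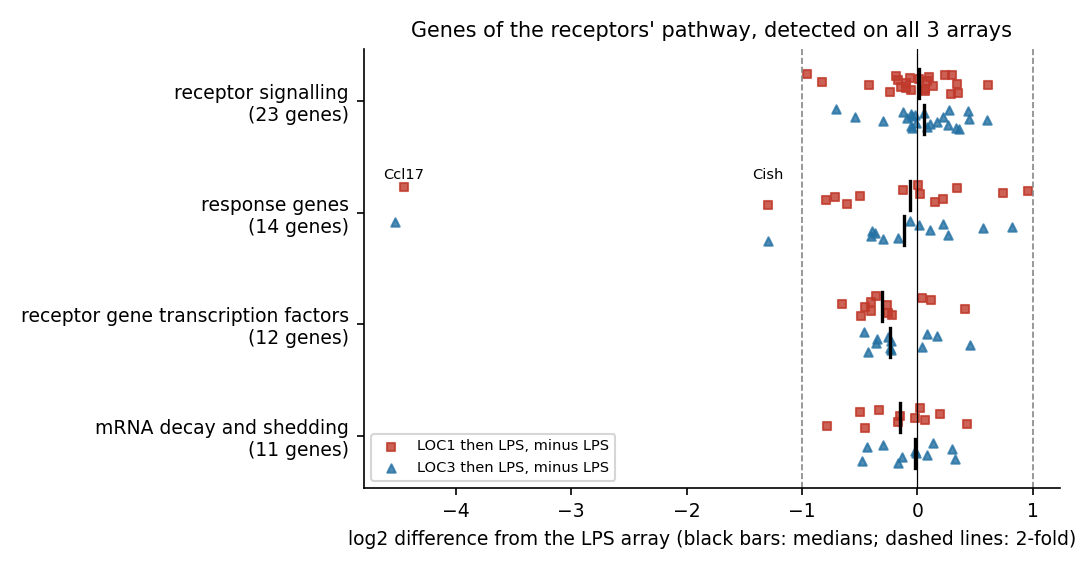
Log2 difference from the LPS array for genes of 4 lists that were well above background on all 3 arrays, with LOC1 and LOC3. There is 1 point a gene, from its brightest probe, and black bars mark the medians of the points. Dashed lines mark 2-fold. Cish and Ccl17 are the named points beyond the lower line, and no point lies beyond the upper one.

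A lower signal from a bulk culture does not separate fewer cells with a transcript from less of it in each cell. The control genes Actb and Gapdh differed from LPS by 0.07 and 0.30 with LOC1 and by 0.12 and 0.34 with LOC3, so the values of Gapdh, which serves as a control, were of the order of those of Csf1 (0.43 and 0.31) and above those of Csf3 and Csf2ra.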

How the data were processed

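RNA of 3 RAW264.7 cultures was hybridised by the authors to 1-colour 60-mer mouse arrays, all on 1 slide and scanned once. The deposited scanner files hold Cy3 intensity per spot, background-subtracted by Feature Extraction 12.0.3.1 per the file headers. The deposited value table holds log2 ratios to the unchallenged macrophages, for 13135 probes past 2-fold, and the submitters' processing notes name R 3.2.5 and limma. The table's scale and direction were checked against the scanner intensities. Differences between its columns matched to within 0.01 for at least 99.958% of probes, with a slope of 1 and a median gap of at most 0.0031, and its columns had medians of 1.05 (LPS), -1.03 (LOC1) and -1.04 (LOC3). Its direction, treated less unchallenged, and the unchallenged level were taken as the submitters' design states them, since that array was not analysed here.

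Control spots and spots flagged as outliers (118 to 135 an array) were left out, spots of a probe were averaged, and log2 intensity less the array's 75th percentile was compared between arrays. Where the scanner software did not rate a signal as well above background, the array's lowest signal so rated (14.5 to 19.8) took its place, which gives a bound. A gene was its brightest probe over the 3 arrays. A gene was called at 2-fold where at least 1 array was well above background. With 1 array a group, no test was run. The technical SD came from probes printed at least 5 times (270 bright, 9 dim), bright meaning within 1 log2 unit below the 75th percentile or higher. The number of arrays limits the precision.

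All 8 members were named with every probe. Other genes were named from lists of receptor partners, signalling, response, receptor gene transcription factors, messenger decay and shedding, and from lists of cell type markers, with counts and up to 4 examples a list, genes past 2-fold with both strains first and then those with the greatest mean difference. Jak2 and Stat5a were named after their values were seen, as the first steps of signalling. Lyn and Mitf were named because a probe other than the brightest passed 2-fold. 1 gene of the signalling list and 1 B cell marker are not reported here. The members and lists were chosen with earlier results of these data known. Genes alike to Csf2 and Csf1r were ranked by distance over the differences from LPS. Alternatives were median and quantile scaling, a percentile over detected probes, normexp (limma 3.58.1, R 4.3.3, offset 50), other filters, the mean of a gene's probes, flagged spots included, saturated probes dropped, a 3-fold limit and the deposited table. The calling was tested on simulated data. Python 3.11.15, numpy 2.4.6, pandas 2.3.3 and matplotlib 3.10.9 were used.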

Additional observations from a re-analysis of the deposited data

Results flagged for a closer look

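Csf3 was the only member whose difference from LPS alone had opposite signs with the strains, with log2 values of 0.18 after LOC1 and -0.0102 after LOC3. With 1 array a group the difference between the strains was not tested, and the value with LOC3 was smaller than the technical SD of repeated spots.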

How the results depend on the processing

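Csf2 stayed at least 2-fold higher than LPS alone with both strains under every alternative scaling, background correction, filter and probe rule, between 2.12 and 2.58 with LOC1 and between 1.34 and 1.72 with LOC3, and Csf2rb at least 2-fold lower (-1.72 to -1.45 and -1.41 to -1.13). Csf2rb2 ran from -1.41 to -1.14 with LOC1 and from -1.25 to -0.98 with LOC3, so 1 receptor in place of 2 was at least 2-fold lower with LOC3 under median scaling. Csf1r ran from -0.98 to -0.67 and from -0.83 to -0.50, Csf1 from 0.06 to 0.62 and from 0.01 to 0.48, its lowest values being means over its probes, and Csf3r from -0.53 to -0.25 and from -0.67 to -0.38. At 3-fold, 1 member (Csf2rb) was lower with LOC1 and 0 with LOC3, 0 members were higher with LOC3, and 3 genes were listed as higher with LPS than unchallenged in place of 5. The ligand median with LOC1 was 0.62 under median scaling, 0.34 under quantile normalization, 0.18 with the mean of detected probes and 0.36 with the percentile over detected probes, and with LOC3 it was 0.48, 0.19, 0.0108 and 0.23. The receptor median under these settings was -0.67, -0.98, -0.93 and -0.93 with LOC1 and -0.50, -0.83, -0.79 and -0.75 with LOC3, and under normexp -0.91 and -0.73. Between LOC1 and LOC3 the receptor median was -0.15 under quantile normalization and -0.14 with the mean of probes. The cause of these shifts was not tested. Over all genes, calls with LOC1 numbered 223 higher and 200 lower under normexp, 1533 and 2263 with no filter, 368 and 463 with both arrays above background, 194 and 211 at 3-fold and 315 and 455 in the deposited table. With LOC3 they numbered 271 and 146, 1748 and 1968, 332 and 378, 260 and 134, and 309 and 418, in the same order. Between the strains they numbered 40 and 112, 1178 and 1641, 37 and 69, 69 and 213, and 196 and 212. With the percentile over detected probes the calls numbered 455 higher and 844 lower with LOC1, and 547 and 710 with LOC3. Under quantile normalization they numbered 627 and 610 with LOC1, and 703 and 510 with LOC3. No paired analysis was possible because each group has 1 array, and for the same reason no replicate could be left out. The deposited table gave no count over the members, as it listed no receptor in both the LPS and a LOC column.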
